A study of Mus musculus with 6 samples.

Results

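In the heart ventricle 10 macrophage genes were followed, namely 5 markers of resident macrophages (*Lyve1*, *Timd4*, *Folr2*, *Cd163* and *Mrc1*) and 5 markers of recruited cells or of macrophages in general (*Ccr2*, *Adgre1*, *Csf1r*, *Cd68* and *Lyz2*). They were chosen by name, each with 1 Ensembl identifier in the GENCODE M21 annotation, and are 10 of the 54232 identifiers counted. All 10 passed the filter on low counts, which left 14133 genes. The RNA came from wild-type C57BL/6J mice fed western diet (WD) for 15 weeks and then needle-fed for 3 weeks, on cycles of 2 days with and 2 days without treatment. The WD + Tributyrin group (n = 3) received Tributyrin, a triglyceride of butyrate, at 5 g/kg body weight, and the WD + Vehicle group (n = 3) received vehicle, which the sample labels name PBS. No chow-fed group was analysed here. The sample titles number the mice of each group and give neither age nor sex. All 6 libraries carried transcripts of the Y-linked gene *Ddx3y* (1571 to 2559 counts) and 0 to 6 counts of *Xist*, the pattern of male mice.

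Macrophages of the adult heart fall into cells that maintain themselves in the tissue and cells that are replaced by circulating monocytes. The self-maintaining cells are known for LYVE1, TIMD4 and FOLR2 on their surface, together with the scavenger receptors CD163 and MRC1, and they take up debris from cardiomyocytes. Monocytes follow the chemokine CCL2 into tissue through the receptor CCR2, and cells newly derived from them carry CCR2 and usually little TIMD4 or LYVE1.

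No macrophage marker passed the test between WD + Tributyrin and WD + Vehicle. The resident markers lay within 0.09 of no change on the log2 scale, the largest difference being −0.09 in *Mrc1*. *Ccr2*, the monocyte receptor, had the largest difference at 0.54 (standard error 0.321), and its range overlapped between the groups. *Lyz2*, the lysozyme of macrophages and other myeloid cells, was the 1 marker whose groups did not overlap, at 0.17 (standard error 0.0736). With the quasi-likelihood test of edgeR, adjusted by Benjamini-Hochberg over 14133 genes, all 10 had an adjusted p of 0.999.

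The libraries held 20369746 to 32734485 counts on genes. Mitochondrial transcripts took 23.6% to 28.8% of them, the 3 Tributyrin mice at 25.9% to 28.8% and the 3 vehicle mice at 23.6% to 26.5%. The labelled tissue was checked with 8 cardiomyocyte genes, whose summed level was 57450 to 62370 CPM (counts scaled to a common library size). The summed level of 6 atrial genes stood apart in vehicle mice 1 and 2, at 180.4 and 173.8 CPM. It was 31.2 to 64.3 CPM in the other 4 mice. By this sum vehicle mice 1 and 2 are called high in atrial transcripts below. The atrial gene *Nppa* was instead highest in vehicle mouse 3, at 842 counts against 533 and 625 in vehicle mice 1 and 2. *Bmp10* had 0 to 1 counts in each library. The part of atrial transcripts in the results below was not tested. Values without vehicle mice 1 and 2 are given where the direction of a marker or of a class median turned without them. In whole ventricle tissue, fewer macrophages and less RNA per macrophage cannot be told apart.

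Levels were compared between genes per length, as CPM per kilobase of exon with library sizes scaled by the TMM method. *Lyz2* was the most abundant marker at 67.6 ± 5.59 (SD, n = 6), 9.28-fold above *Lyve1* at 7.29 ± 1.56. *Csf1r*, the receptor for the macrophage growth factors CSF1 and IL-34, followed at 5.87 ± 0.816. The next 3 genes lay close together, *Cd68*, a lysosomal glycoprotein, at 4.17 ± 0.56, *Mrc1*, the mannose receptor, at 4.04 ± 0.595, and *Cd163*, the receptor for haemoglobin bound to haptoglobin, at 3.95 ± 0.81. *Adgre1*, which encodes the F4/80 antigen, was at 2.76 ± 0.507. *Folr2*, a folate receptor, was at 0.796 ± 0.216, *Timd4*, a receptor for phosphatidylserine on dying cells, at 0.478 ± 0.111, and *Ccr2* lowest at 0.232 ± 0.0868.

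Only 3 neighbouring pairs in this order had ranges over the 6 mice that did not touch, namely *Lyz2* above *Lyve1*, *Csf1r* above *Cd68*, and *Adgre1* above *Folr2*. The ranges of the other 6 neighbouring pairs overlapped. Even so, *Cd163* was above *Adgre1*, *Folr2* above *Timd4* and *Timd4* above *Ccr2* within each of the 6 mice. The order of *Cd68*, *Mrc1* and *Cd163* turned with the length used, since with the longest transcript in place of all exons *Cd163* was at 4.86, *Mrc1* at 4.79 and *Cd68* at 4.26. A high level did not follow the resident or general label, as each class held a gene near the top and a gene near the bottom.

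**Figure D1:**
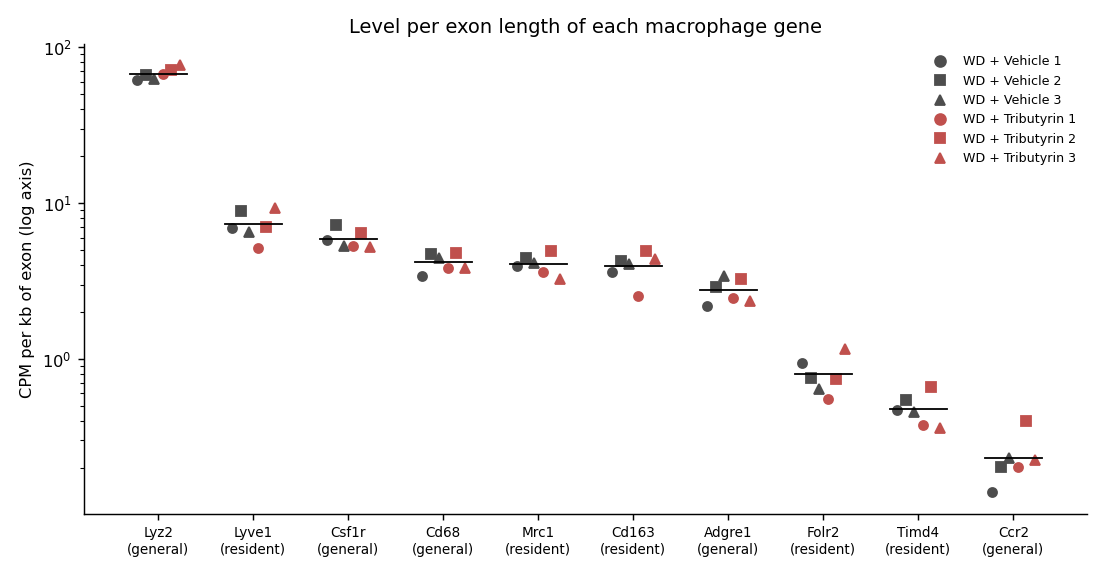
Level of each macrophage gene in each of the 6 mice, in CPM per kilobase of exon on a log axis, with genes in order of their mean (black bar), vehicle mice in grey and Tributyrin mice in red, and the marker shape giving the replicate number. *Lyz2* lay at 61.9 to 76.5, and *Ccr2* at 0.139 to 0.397.

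Counting error differed as widely as the levels. *Lyz2* had 1746 to 2924 counts per library, which gives a relative counting error of at most 2.39%. *Timd4* had 18 to 41 counts, *Folr2* 21 to 41 and *Ccr2* 24 to 77, with counting errors of up to 23.6%, 21.8% and 20.4%. The coefficient of variation over 6 mice was 23% for *Timd4*, 27.6% for *Folr2* and 37.2% for *Ccr2*, where counting alone gives 19.8%, 18.1% and 16.4%, so that the spread of *Timd4* was close to counting error and that of *Ccr2* was well beyond it. For *Lyve1* it was 21.4% where counting gives 4.33%, and for *Cd163* 20.5% where counting gives 4.3%.

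*Lyve1* encodes a hyaluronan receptor that resident macrophages share with lymphatic endothelium. The gene (ENSMUSG00000030787) spans chromosome 7, 110850607 to 110863239, on the minus strand of GRCm38. Its normalized read count, the count divided by the library's size factor, was 532.2, 675.4 and 500.7 in the vehicle mice and 390.9, 539.1 and 719.2 in the Tributyrin mice. The lowest and the highest of the 6 mice were both Tributyrin mice, 1 and 3. The group means were 569.4 ± 93.1 and 549.7 ± 164 (SD, n = 3), and the fold was 0.959 with a 95% interval of 0.713 to 1.29. Without the 2 vehicle mice high in atrial transcripts, the log2 difference was 0.13 in place of −0.06.

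*Timd4* (ENSMUSG00000055546; chromosome 11, 46810800 to 46844332, plus strand), a marker of self-maintaining cells, was counted sparsely. Its normalized count was 27.02, 31.02 and 26.09 in the vehicle mice and 21.51, 37.46 and 20.65 in the Tributyrin mice. Tributyrin mouse 2 was above and mice 1 and 3 were below every vehicle mouse. The fold was 0.95, and its interval of 0.59 to 1.53 held differences of either direction. Its log2 difference of −0.07 became 0.03 without the 2 vehicle mice high in atrial transcripts.

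*Folr2* (ENSMUSG00000032725; chromosome 7, 101839988 to 101857194, minus strand) had normalized counts of 38.5, 30.2 and 26.1 with vehicle and 22.4, 30.2 and 47.0 with Tributyrin. Tributyrin mouse 3 was again the highest and mouse 1 the lowest, as for *Lyve1*. The fold was 1.04 (95% interval 0.634 to 1.69). An antisense gene, *Gm10602*, shares 975 exon bases with *Folr2* and had 20 to 48 counts, close to the 21 to 41 counts of *Folr2* itself. The libraries were stranded, but the strand setting of the counting is not given in the sources used here, so the assignment of reads between them is uncertain.

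*Cd163* (ENSMUSG00000008845; chromosome 6, 124304656 to 124330527, plus strand) was at 523.9, 607.9 and 583.9 with vehicle. The Tributyrin mice were at 361.9, 700.8 and 628.6. Mouse 1 lay far below and the other two Tributyrin mice above all 3 vehicle mice, and the means were nearly equal at 571.9 ± 43.3 and 563.8 ± 179 (SD, n = 3). The fold was 0.985 (95% interval 0.727 to 1.33).

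*Mrc1* (ENSMUSG00000026712; chromosome 2, 14229392 to 14332057, plus strand) was the steadiest resident marker with vehicle, at 666.3, 739.7 and 688.3. It was at 600.3, 822.3 and 546.0 with Tributyrin. The vehicle values fell inside the Tributyrin range, with mouse 2 above and mice 1 and 3 below them. The fold was 0.942 (95% interval 0.761 to 1.17), and with Tributyrin mouse 2 left out the log2 difference was −0.28 with an unadjusted p of 0.013 in edgeR's fit across genes. In that fit the adjusted p of *Mrc1* was 0.417, and 1360 of 14225 genes had an unadjusted p under 0.05.

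The resident markers therefore shared a wide spread among the Tributyrin mice, and the vehicle mice all lay within the Tributyrin range for 5 of 5 resident genes against 0 of 5 recruited or general genes. Over all tested genes this nesting was found for 28.1%, and the reverse nesting, Tributyrin mice within the vehicle range, for 14%. Of the 10 markers only *Adgre1* had the reverse nesting. The pattern was noticed after the values were seen, the 5 genes come from the same libraries, and the difference in spread was not tested.

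**Figure D2:**
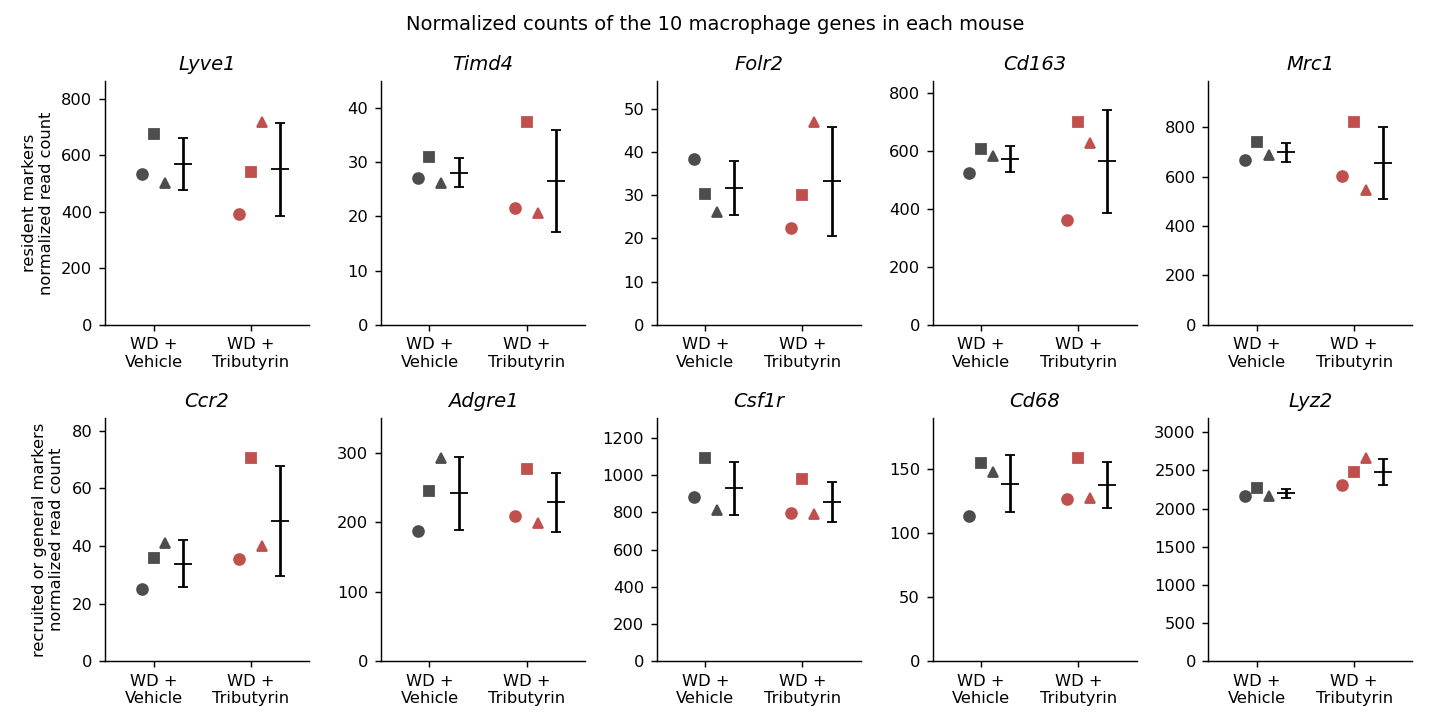
Normalized read count of each marker in each mouse on a linear axis from 0, resident markers above and recruited or general markers below, with circles, squares and triangles for replicates 1, 2 and 3 and the mean ± SD (n = 3) beside each group. The lowest and highest mice of all 5 resident markers are Tributyrin mice, and *Lyz2* is the marker whose groups do not overlap.

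*Ccr2* (ENSMUSG00000049103; chromosome 9, 124101950 to 124113557, plus strand) had normalized counts of 24.9, 35.7 and 41.0 with vehicle and 35.5, 70.4 and 40.2 with Tributyrin. Tributyrin mouse 2 alone lay above the vehicle range, and the other two Tributyrin mice were inside it. The fold was 1.45 (95% interval 0.884 to 2.37) with an unadjusted p of 0.126 from edgeR's fit across genes. Leaving out Tributyrin mouse 2 took the log2 difference from 0.54 to 0.16, and leaving out both vehicle mice high in atrial transcripts took it to 0.25. Leaving out Tributyrin mouse 1 took it to 0.73 with an unadjusted p of 0.0491 in edgeR's fit. In that fit 534 of 14270 genes had an unadjusted p under 0.05, and 0 markers passed an FDR of 10%. Of 6758 windows of 50 bases in its transcripts, 129 (1.91%) also occur in other genes.

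*Adgre1* (ENSMUSG00000004730; chromosome 17, 57358691 to 57483527, plus strand) was at 188.1, 245.0 and 292.0 with vehicle and 209.5, 276.9 and 199.6 with Tributyrin. Vehicle mice were both the lowest and the highest of the 6, and the fold was 0.952 (95% interval 0.724 to 1.25). *Cd68* (ENSMUSG00000018774; chromosome 11, 69664213 to 69666153, minus strand) was at 113.3, 154.3 and 147.8 with vehicle and 126.2, 158.1 and 127.3 with Tributyrin. The group means of *Cd68* were 138.5 ± 22 and 137.2 ± 18.1 (SD, n = 3), a fold of 0.992 (95% interval 0.77 to 1.28).

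*Csf1r* (ENSMUSG00000024621; chromosome 18, 61100598 to 61132149, plus strand) was at 883.5, 1090 and 812.5 with vehicle and 795.8, 979.5 and 790.4 with Tributyrin. Tributyrin mice 1 and 3 were just below the lowest vehicle mouse and mouse 2 was inside the vehicle range. The fold was 0.92 (95% interval 0.761 to 1.11), and the log2 difference of −0.12 became 0.07 without the 2 vehicle mice high in atrial transcripts. The gene *Hmgxb3* on the opposite strand shares 873 exon bases with *Csf1r* and had 443 to 653 counts.

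*Lyz2* (ENSMUSG00000069516; chromosome 10, 117277331 to 117282321, minus strand) was at 2161, 2267 and 2169 with vehicle and 2312, 2472 and 2657 with Tributyrin. Each Tributyrin mouse was above each vehicle mouse, the nearest pair being 2312 and 2267. The means were 2199 ± 59.2 and 2480 ± 173 (SD, n = 3), a fold of 1.13 (95% interval 1.01 to 1.26). By unadjusted p, 0.0392 in edgeR's quasi-likelihood fit across genes, *Lyz2* was at rank 478 of 14133. With Benjamini-Hochberg adjustment the p was 0.999, and DESeq2 gave an unadjusted p of 0.0495 and an adjusted p of 1.

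Read against all genes, *Lyz2* did not stand out. With edgeR 0 of 14133 genes (0%) passed an FDR of 10%, and 600 genes (4.25%) had an unadjusted p under 0.05, among which was 1 of the 10 markers. DESeq2 called 11 genes and limma-voom 0 at 10%, none of them a marker. Groups that did not overlap were found for 4.26% of genes in the higher direction, with 1 of 10 markers, and for 4.65% in the lower direction, with 0 of 10. The unadjusted p of *Lyz2* depended on the scaling and on single mice. With library size alone as the scale it was 0.211 at a log2 difference of 0.10, and it was 0.102, 0.056 and 0.109 without vehicle mouse 1, 2 or 3 and 0.108 without Tributyrin mouse 3. Without both vehicle mice high in atrial transcripts it was 0.206 at a log2 difference of 0.19.

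**Figure D3:**
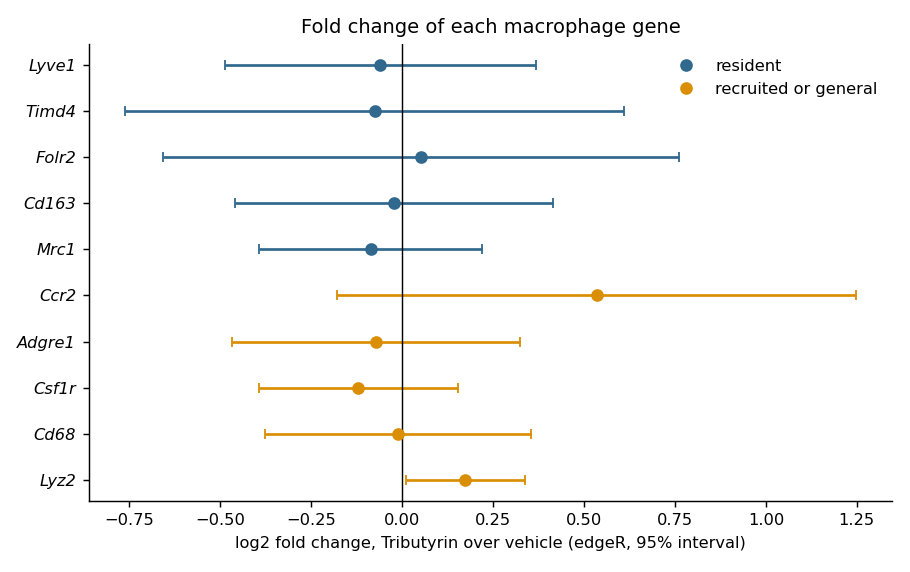
Log2 fold change of each marker, Tributyrin over vehicle, with its 95% interval from edgeR, resident markers in blue and recruited or general markers in orange. All intervals but that of *Lyz2* (0.01 to 0.34) cross 0, and that of *Ccr2* runs from −0.18 to 1.25.

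*Lyz2* also has a near-identical neighbour, *Lyz1*, the lysozyme of Paneth cells in the intestine, so the sequences decide whether short reads can tell them apart. In the GENCODE M21 transcripts of GRCm38 both coding sequences are 444 bases long and differ at 22 positions (95.1% identity). The stretch of coding bases 61 to 120, counted from the A of the start codon, holds 9 of the differences. It is printed 5′ to 3′ with the differing bases in capitals.
Lyz2: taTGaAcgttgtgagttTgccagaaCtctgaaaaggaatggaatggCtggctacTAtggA
Lyz1: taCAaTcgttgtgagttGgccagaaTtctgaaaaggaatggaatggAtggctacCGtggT
A read of 50 bases within this stretch meets several differences. The longest stretch without any runs from coding base 276 to 393 and is 118 bases long, in which such reads cannot be assigned to either gene.
Lyz2 and Lyz1: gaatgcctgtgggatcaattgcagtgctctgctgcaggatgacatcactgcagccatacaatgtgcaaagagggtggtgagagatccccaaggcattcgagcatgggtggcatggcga
Over the whole *Lyz2* transcript 195 of 1267 windows of 50 bases (15.4%) occur in *Lyz1* too. *Lyz1* had 13, 14 and 14 counts with vehicle and 16, 29 and 20 with Tributyrin, against 1746 to 2924 counts of *Lyz2*. Reads that fit both genes are not among those counted on either if the counting used unique alignments, and that setting is not given in the sources used here.

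Comparing resident with recruited or general markers directly, the mean log2 CPM of the 5 resident genes was 2.82 ± 0.11 with vehicle and 2.76 ± 0.317 with Tributyrin (SD, n = 3). The mean of the 5 recruited or general genes was 3.50 ± 0.196 and 3.60 ± 0.223. The difference of these scores within each mouse, in which the scale of the library cancels, was −0.47, −0.69 and −0.88 in the vehicle mice and −1.05, −0.86 and −0.61 in the Tributyrin mice. The groups overlapped, with means 0.16 apart and SDs of 0.203 and 0.219. Vehicle mouse 3, the only vehicle mouse whose summed atrial level was not high, lay below the Tributyrin mean of −0.84. The median log2 fold change was −0.06 over the resident and −0.01 over the recruited or general genes, beside 0.00 over all genes tested. A value below 0 was found for 4 of 5 resident genes and 3 of 5 recruited or general genes. Neither sign held when mice were left out. Without the 2 vehicle mice high in atrial transcripts the medians were 0.03 and 0.07, with 2 of 5 genes below 0 in each class. With single mice left out they ran from −0.22 (without Tributyrin mouse 2) to 0.14 (without Tributyrin mouse 1) for the resident genes, and from −0.13 (without vehicle mouse 1) to 0.08 (without vehicle mouse 2) for the recruited or general genes.

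Of the 25 ratios of a resident to a recruited or general gene, 19 were lower and 6 higher with Tributyrin, with a median difference of −0.07 on the log2 scale. These ratios share their 10 genes, and the lower ones were led by the 5 with *Ccr2* (−0.58 to −0.44) and the 5 with *Lyz2* (−0.29 to −0.15), both of which had a fold above 1. The ratio of *Timd4* to *Ccr2*, singled out after its values were seen, was 0.11, −0.19 and −0.61 with vehicle and −0.68, −0.88 and −0.90 with Tributyrin on the log2 scale of CPM. This was the 1 ratio of the 25 whose groups did not overlap, and neither gene had more than 77 counts in a library. For single genes the share without overlap was 4.26% in the higher and 4.65% in the lower direction. No such share was computed for ratios. Per length, *Lyve1* was 40.5 ± 11 times the level of *Ccr2* with vehicle and 28.2 ± 12.1 times with Tributyrin, with overlapping groups. *Mrc1* was 22.7 ± 5.3 and 14.9 ± 2.8 times the level of *Ccr2*, where the lowest vehicle mouse, at 17.8, lay just under the highest Tributyrin mouse, at 17.9.

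The resident genes took 17.9% ± 0.871 of the summed per-length level of the 10 markers with vehicle and 16.04% ± 2.31 with Tributyrin (SD, n = 3). Tributyrin mouse 1 alone was low, at 13.4% against 17.3% to 17.4% in the other two Tributyrin mice and 17.2% to 18.9% with vehicle. *Lyz2* by itself took 66.1% to 73.7% of the sum. With *Lyz2* left out, the resident share was 55.8% ± 2.0 and 55.8% ± 5.33, and Tributyrin mice 1 and 3 were the lowest and highest of the 6 at 50.9% and 61.4%.

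Within the classes the markers did not vary as a block across the 6 mice. *Timd4* and *Mrc1* had the most alike profiles of all marker pairs, with a Pearson r of log2 CPM of 0.978 over 6 libraries, and *Lyve1* and *Folr2* had an r of 0.768. Between these pairs there was little likeness, with −0.019 for *Lyve1* and *Mrc1* and −0.354 for *Folr2* and *Mrc1*. Tributyrin mouse 3 showed the split, since it was 0.39 and 0.56 above the 6-mouse mean for *Lyve1* and *Folr2* and at −0.36 and −0.30 from it for *Timd4* and *Mrc1*, on the scale of log2(normalized count + 1). Each of these pairs held a sparsely counted gene, *Timd4* (18 to 41 counts) or *Folr2* (21 to 41 counts). Their coefficient of variation over the 6 mice was 23% and 27.6%, where counting alone gives 19.8% and 18.1%. The part of counting error in the split was not tested. Among the general genes *Adgre1* and *Cd68* were most alike (0.901). The median r was 0.488 over the 10 resident pairs, 0.447 over the 10 general pairs and 0.449 over the 25 mixed pairs, so that pairs within a class were about as alike as pairs across classes. These values describe 6 libraries that share depth and scaling, and carry no test.

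**Figure D4:**
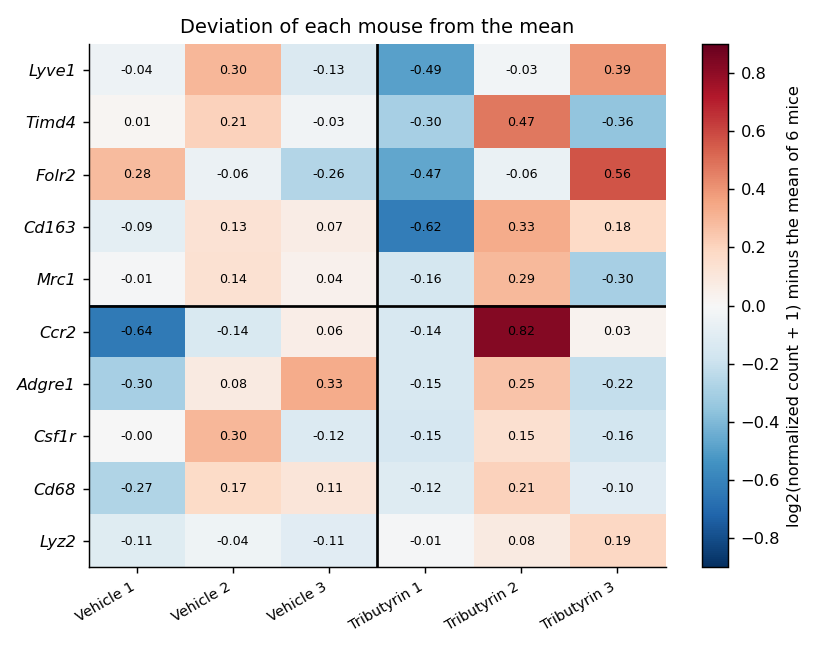
Deviation of each mouse from the mean of the 6 mice for each marker, as log2(normalized count + 1), red above and blue below the mean, with vehicle mice to the left and resident markers above. Tributyrin mouse 1 is below the mean for all 5 resident markers (−0.62 to −0.16), mouse 2 is highest for *Ccr2* (0.82), and mouse 3 is high for *Lyve1* and *Folr2* but low for *Timd4* and *Mrc1*.

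The genes whose profile over the 6 libraries was most like that of a marker were sought among 11472 genes with a mean normalized count of at least 50. *Fgd3* (Pearson r 0.992), *H2-T22* (0.991) and *Serpina3n* (0.983) were most like *Ccr2*. *Proser2* (0.995), *Inka1* (0.994) and *Chrd* (0.991) were most like *Lyve1*, and *Arvcf* (0.995), *Cand2* (0.995) and *Scn7a* (0.989) most like *Timd4*. For *Mrc1* they were *Ddr2* (0.992), *Igf1r* (0.991) and *Sfrp1* (0.989), and for *Lyz2* they were *Alkbh1* (0.989), *Nudc* (0.988) and *Sf3a3* (0.988). The mean of the resident genes was most like *Scx* (0.992) and *Pank2* (0.992), and the mean of the recruited or general genes most like *Esyt2* (0.987), *AU041133* (0.977) and *Rab3gap1* (0.975). The best r lay between 0.986 and 0.995 for each of the 12 profiles searched, and these values are descriptions only.

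Other genes of the same biology were read from the same fit. Of 20 further genes of resident macrophages, 19 were tested and 0 passed an FDR of 10% or an unadjusted p under 0.05, with 7 above and 12 below 0 and a median log2 fold change of −0.03. *Selenop*, the plasma selenium carrier, and *Gas6*, a ligand of the engulfment receptor MERTK, had the highest counts in this list at log2 differences of 0.07 and −0.03. *Stab1*, a scavenger receptor, was at −0.20 (unadjusted p 0.0958), *Cbr2*, a carbonyl reductase, at −0.21 (0.105) and *Fcna*, a ficolin, at −0.44 (0.111), all 3 from edgeR's fit across genes. Without the 2 vehicle mice high in atrial transcripts the list's median was 0.03.

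Of 20 genes of monocytes and newly recruited macrophages, 13 were tested. Defining monocyte genes were near 0, with 2 to 3 counts of *Ly6c2* and 0 to 5 counts of *Chil3* in each library. Of the 13, 0 passed an FDR of 10%, 3 were above and 10 below 0, and the median was −0.32, or −0.08 without vehicle mouse 3. *Thbs1*, thrombospondin, had normalized counts of 583.1, 526.5 and 413.7 with vehicle and 248.7, 399.3 and 299.4 with Tributyrin, so that each Tributyrin mouse was below each vehicle mouse. Its log2 difference was −0.68 (standard error 0.176), with an unadjusted p of 0.00286 and, after Benjamini-Hochberg adjustment in edgeR, an adjusted p of 0.999. *Vcan*, a matrix proteoglycan, was at −0.62 (unadjusted p 0.0258) and *Fn1*, fibronectin, at −0.32 (0.122) in the same fit. These 3 matrix genes are also expressed by fibroblasts, and *Ccr2* itself had a fold above 1. Of 7 fibroblast genes, 3 were above and 4 below 0, with a median of −0.01 and a summed level of 2128 to 2256 CPM with vehicle and 1965 to 2417 CPM with Tributyrin. Among them the matrix genes *Lum* (−0.31, unadjusted p 0.00257) and *Col1a1* (−0.46, 0.0224) were the 2 with an unadjusted p under 0.05 in edgeR's fit across genes, and their part in the values of the recruited list was not tested.

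Of 20 genes of the CCR2 axis and leukocyte entry, 16 were tested, with 8 above and 8 below 0. *Ccl8*, a chemokine that attracts leukocytes, had normalized counts of 13.5, 7.75 and 13.7 with vehicle and 14.0, 40.2 and 21.8 with Tributyrin. The groups did not overlap, although Tributyrin mouse 1 exceeded the highest vehicle mouse by less than 1 normalized count. Its log2 difference was 1.16 (standard error 0.454), with an unadjusted p of 0.0277 in edgeR's fit across genes. *Ccr1*, another monocyte receptor, was at −0.72 (unadjusted p 0.0802 in the same fit). Its groups did not overlap either, with normalized counts of 17.39 to 24.81 with vehicle and 8.416 to 17.36 with Tributyrin. Over all genes tested, groups did not overlap for 4.26% in the higher and 4.65% in the lower direction. The adhesion molecule *Vcam1* and the chemokine *Cxcl12*, which had the highest counts, were at 0.16 and −0.13.

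The ligands and regulators around CSF1R gave 17 tested genes, 6 above and 11 below 0, with 0 at an unadjusted p under 0.05. *Csf1*, the ligand, had a log2 difference of −0.17 beside −0.12 for *Csf1r*. All 20 further genes expressed across macrophages were tested, 7 above and 13 below 0, with a median of −0.08 and 0 at an unadjusted p under 0.05. *Lcp1* and *Coro1a*, which organise the actin cytoskeleton of leukocytes, were at −0.17 and −0.28. The phagocytosis and lysosome list (17 tested, 8 above and 9 below 0, median −0.01) and the list for haem, iron and folate handling (12 tested, 5 above and 7 below 0, median −0.08) held 0 genes at an unadjusted p under 0.05 either.

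Genes of class II antigen presentation and dendritic cells lay to one side of 0. All 11 tested of 14 genes were above 0, with a median of 0.50, and 6 of them (*H2-Aa*, *H2-Ab1*, *H2-Eb1*, *Cd74*, *H2-DMb1* and *Xcr1*) had an unadjusted p under 0.05, beside 4.25% of all genes, while 0 passed an FDR of 10%. Without the filter on low counts, 4 of these genes, 3 of the monocyte list and 5 atrial genes passed it, among 167 of 25581 genes. The degrees of freedom behind a gene's spread were 102324 in that fit and 10.3 in the main fit. The spread of single genes thus entered that fit far less. *H2-Ab1*, a class II chain, had normalized counts of 485.4, 443.5 and 417.4 with vehicle and 549.8, 1002 and 604.5 with Tributyrin. *Xcr1*, a chemokine receptor of cross-presenting dendritic cells, was at 13.5, 16.3 and 12.4 with vehicle and 28.1, 29.2 and 26.4 with Tributyrin. In both genes each Tributyrin mouse was above each vehicle mouse, with log2 differences of 0.68 and 0.97 and unadjusted p of 0.00573 and 0.00727 in edgeR's fit across genes.

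The median of this list rested largely on Tributyrin mouse 2, the mouse with the highest *Ccr2*. The summed level of the 14 genes was 116.5, 123.9 and 127.2 CPM with vehicle and 128.5, 231.1 and 144.7 CPM with Tributyrin. Without mouse 2 the list's median was 0.11, with 9 genes above and 2 below 0 and 2 at an unadjusted p under 0.05. With any other single mouse left out the median stayed between 0.46 and 0.65. The number under 0.05 was less steady, at 2 without vehicle mouse 1 or 2, 3 without vehicle mouse 3, 7 without Tributyrin mouse 1, 6 without Tributyrin mouse 3 and 1 without both vehicle mice high in atrial transcripts. It was 2 with library size alone as the scale, where 9 genes were above and 2 below 0, and 3 with DESeq2 or limma-voom. Several kinds of cell express class II genes. Of the other dendritic cell genes in the list, *Itgax* had a log2 difference of 0.87 (unadjusted p 0.151), *Clec9a* was at 0.07 and *Zbtb46* at 0.06, while *Cd209a*, *Flt3* and *Ccr7* had 0 to 15 counts in each library and were not tested.

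**Figure D5:**
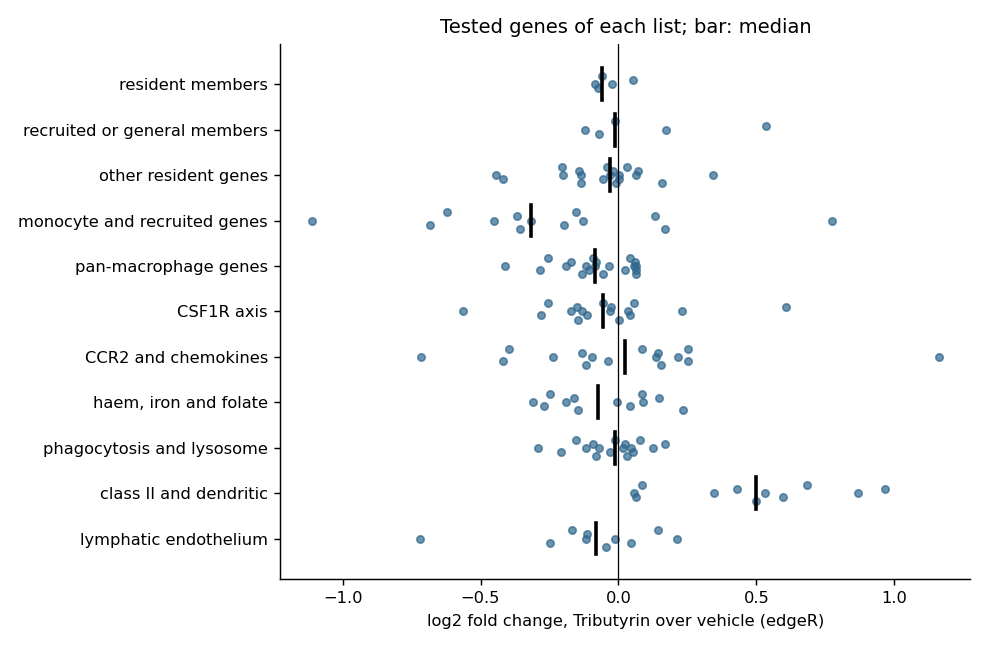
Log2 fold change, Tributyrin over vehicle, of each tested gene of the marker sets and of the lists around them (points), with the median of each list as a black bar. The class II and dendritic genes lie to the right of 0 (median 0.50) and the monocyte and recruited genes mostly to the left (median −0.32), while the resident markers lie between −0.09 and 0.05.

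Markers of other cells that could add to the markers were measured in the same libraries. Lymphatic endothelium, which also expresses *Lyve1*, had 10 tested genes with 3 above and 7 below 0, a median of −0.08 and a summed level of 164.2 to 182.2 CPM with vehicle and 136.1 to 198.5 CPM with Tributyrin. Tributyrin mouse 3, the highest for *Lyve1*, was the lowest for this sum. *Prox1*, with the highest counts of the list, weighed most in it, at a normalized count of 1266 in that mouse and 1634 to 2845 in the others. *Stab2*, *Mmrn1* and *Pard6g* were also lowest in that mouse, and *Fgl2*, *Ccl21a*, *Thy1*, *Flt4*, *Pdpn* and *Reln* were not. Neutrophils, which express *Lyz2*, gave 0.652 to 2.04 CPM over 10 genes, with *Ly6g* and *Camp* at 0 counts in all 6 libraries, where a count of 0 allows an expected count of up to 3 at 95% confidence. T cell genes summed to 1.09 to 2.40 CPM and B cell genes to 5.55 to 8.003 CPM, with overlapping groups. Adipocyte genes summed to 0.652 to 3.41 CPM, and were highest in Tributyrin mouse 2 and vehicle mouse 2. Erythroid genes were highest in Tributyrin mouse 1, the mouse lowest for 3 of 5 resident markers, at 945.8 CPM against 382.7 to 692.9 CPM in the others. The part of these cells in the marker levels was not tested.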

How the data were processed

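Stranded mRNA libraries of heart ventricle (3 WD + Tributyrin, 3 WD + Vehicle, 50-base single-end reads) were aligned and counted by the authors, who deposited whole-number counts per Ensembl gene without normalization. The submitters' processing notes name mm10, cutadapt 1.13, STAR, HTSeq 0.6.1p1 and DESeq2 1.14.1. Neither the annotation release nor the strand setting is given in the sources used here. Symbols and positions come from GENCODE M21 (54165 identifiers matched). Totals of 20369746 to 32734485 counts set the precision, and counting errors cover counting only.

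Groups were compared with edgeR 4.0.16 (R 4.3.3) by the quasi-likelihood test with TMM scaling, filterByExpr (at least 10 counts, and 15 in total) and Benjamini-Hochberg adjusted p over 14133 genes at an FDR of 10%. Log2 CPM used a prior count of 2, and normalized counts used DESeq2's size factors. Alternatives were other scalings and filters, DESeq2 1.42.0, limma-voom (limma 3.58.1), a replicate block, and fits without each mouse in turn. No pair of libraries agreed within sampling noise. Leaving out the 2 vehicle mice high in atrial transcripts was added after the data were seen.

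The genes and lists were chosen with earlier results of these data known. Named genes are the markers, up to 3 genes per list with the smallest p and 2 with the highest count, the 3 genes most like each marker, and overlapping or near-identical neighbours. *Ddx3y*, *Xist*, *Ly6c2*, *Chil3*, *H2-DMb1*, *Itgax*, *Clec9a*, *Zbtb46*, *Cd209a*, *Flt3*, *Ccr7*, *Ly6g* and *Camp* were named outside this rule after their values were seen. So were *Nppa*, *Bmp10*, *Flt4*, *Pdpn*, *Mmrn1*, *Reln* and *Pard6g*. Values of some single genes that the rule names are left out.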

Additional observations from a re-analysis of the deposited data

How the results depend on the processing

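No tested marker passed an FDR of 10% under any of the alternatives run, or with any single mouse left out. With the filter of a mean CPM of at least 5, only 3 resident and 4 recruited or general markers were tested. *Timd4*, *Folr2* and *Ccr2* fell below that filter. Over all genes, 167 of 25581 passed without the filter on low counts, against 0 of 14133 in the main fit. The degrees of freedom behind a gene's spread were 102324 without the filter and 10.3 in the main fit. With DESeq2 11 genes passed, with the replicate block 2, and with a mouse left out 0 to 3. For these counts the cause was not tested. Vehicle and Tributyrin mice were also correlated on their deviations from their own group mean, not on their levels. These correlations were 0.214, 0.037 and 0.015 for same-numbered mice, and ran from −0.193 to 0.152 for differently numbered mice. With 3 mice per group these values cannot decide whether replicate numbers pair the mice. The block changed no call of a marker. Directions of small differences turned in several fits. *Folr2* was at −0.022 with library size alone and −0.013 with limma-voom. With both vehicle mice high in atrial transcripts left out, *Lyve1* was at 0.13, *Timd4* at 0.033 and *Csf1r* at 0.072. With a mouse left out, *Lyve1* ran from −0.29 to 0.14, *Timd4* from −0.42 to 0.071, *Folr2* from −0.26 to 0.28, *Cd163* from −0.22 to 0.22, *Mrc1* from −0.28 to 0.032, *Adgre1* from −0.24 to 0.078, *Csf1r* from −0.23 to 0.013 and *Cd68* from −0.13 to 0.079. *Ccr2* (0.16 to 0.73) and *Lyz2* (0.13 to 0.23) stayed above 0, and the resident minus general score difference stayed below 0 (−0.27 to −0.06). That score turned when both vehicle mice high in atrial transcripts were left out. Vehicle mouse 3 was then at −0.88 against a Tributyrin mean of −0.84. The sparse counts of *Timd4*, *Folr2* and *Ccr2* limit what 3 mice against 3 can show.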
